A study of Mus musculus with 6 samples.

Results

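The genes described here encode the proteasome: every gene whose symbol begins with Psma, Psmb, Psmc, Psmd, Psme, Psmf or Psmg followed by a number. Of 48 such mouse genes in the gene table used for naming, 47 had a probe on the array by accession, 57 probes in all, out of 21368 named genes and 55681 probes. They were measured in whole tongue from 6 mice with single-colour Agilent arrays. The mice given doxycycline (DOX), the drug that switches the transgene on, received it for 2 weeks (n = 3), and the no DOX mice were left untreated (n = 3). All 6 mice were on the C57Bl6 background and carried the inducible Dek transgene (iDek), which the labels describe as both ubiquitous and squamous cell-specific, and neither the driver nor the age of the mice is given there. Mice without the transgene that received DOX were not analysed here, so an effect of the drug and an effect of Dek, a chromatin protein, cannot be told apart. The labels describe separate mice, so the spread between arrays holds animal and technical variation together.

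The proteasome is the barrel-shaped protease that degrades proteins marked with ubiquitin. Its core is built of stacked rings: outer rings of alpha subunits gate the entry, and inner rings of beta subunits carry the catalytic sites. A regulatory cap of ATPases and non-ATPase subunits binds ubiquitin chains, removes them, unfolds the substrate and threads it into the core. In immune cells, and in other cells exposed to interferon, the catalytic beta subunits can be replaced by inducible forms that make the immunoproteasome, which cuts proteins into peptides suited to presentation on MHC class I. The subunits of the core and cap are kept in step with one another in part by the transcription factor Nfe2l1, whereas the inducible subunits respond to interferon gamma, in part through Irf1.

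The share of probes well above background ran from 56.0% to 58.3% over the arrays. There were 0 saturated spots, and the linear signal at the 75th percentile of probes ran from 245.6 to 263.8. Values below are log2 signals relative to that percentile on the same array, so they describe 1 probe across arrays and do not order genes by abundance. Dek itself, read by 1 probe, had 2.41, 2.41 and 2.27 in DOX tongues and 2.30, 2.10 and 2.20 in no DOX tongues, a log2 difference of 0.17 ± 0.11 (SE) that missed the threshold (adjusted p = 0.456 in limma). The sources used here do not say which part of the Dek transcript the probe or the transgene holds, so this probe does not check the labels. Markers of skeletal muscle (12 of 12) and of keratinocytes (10 of 10) were measured above background, as the tissue label would have it. By their recorded slide positions, DOX replicates 2 and 3 lay in the second row and the other 4 arrays in the first.

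Of the 47 genes with a probe, 45 were tested, and all 45 were well above background on all 6 arrays. The constitutive core and the cap had higher means in DOX tongues, and the immunoproteasome had lower means, but no single proteasome gene passed the test. With an adjusted p under 0.05 in limma (Benjamini-Hochberg over all probes), 0 of 45 were called higher, where 0.278% of all 26256 genes and unnamed probes were, and 0 of 45 were called lower, where 0.126% were. At an unadjusted p under 0.05, 3 were higher (Psmd14, Psmg3 and Psmc2) against a background of 9.05%, and 2 were lower (Psmb9 and Psme1) against 9.58%. The 3 DOX values lay above all 3 no DOX values for 23 of 45 genes, or 51.1%, against 12.7% of everything tested. They lay below for 2 of 45, or 4.44%, against 12.6%. Genes measured on the same 6 arrays are not independent, and these shares are given as descriptions. In whole tissue, a smaller share of cells of 1 type and less RNA per cell cannot be told apart.

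**Figure D1:**
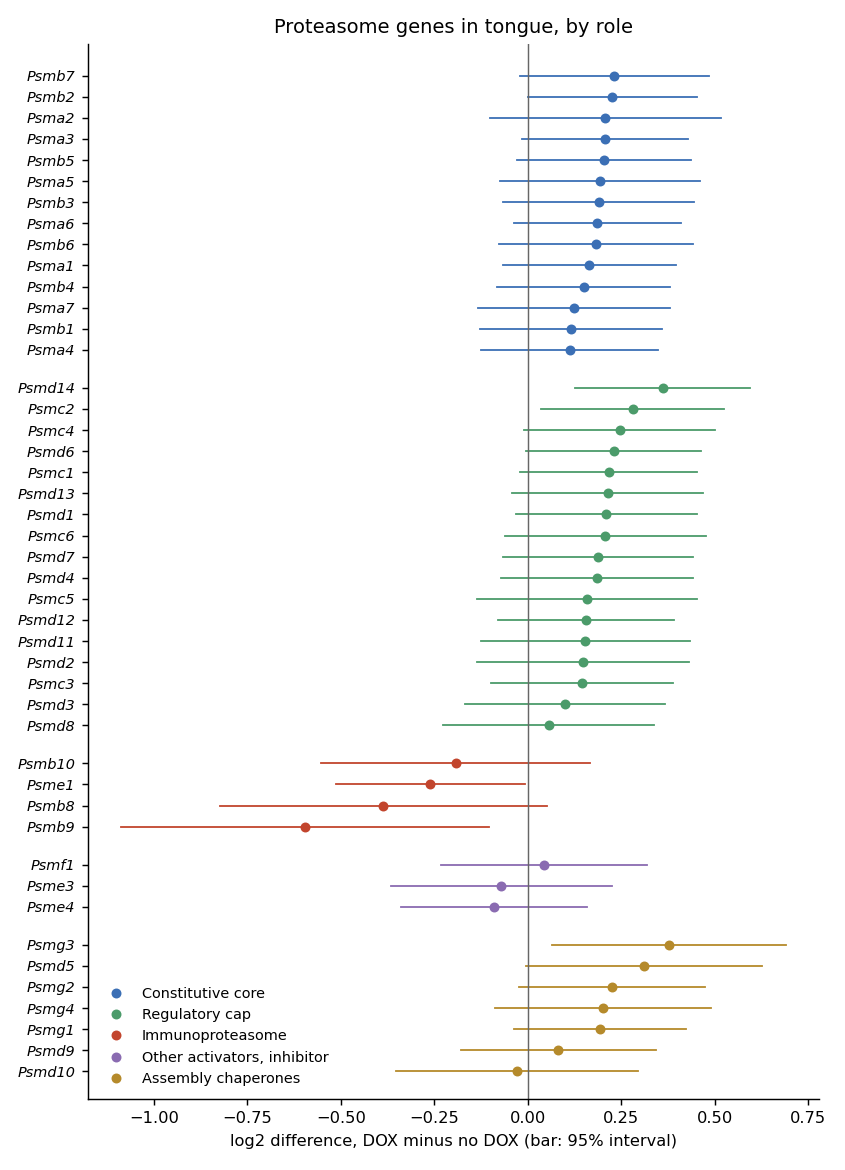
Log2 difference in signal, DOX minus no DOX (x axis), for the 45 tested proteasome genes (rows) grouped by role, with points for the limma estimate and bars for its 95% interval. The 14 core genes and the 17 cap genes all lie right of 0, the 4 immunoproteasome genes all lie left of 0, and the intervals of 40 genes include 0.

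Of the 7 members with lower means in DOX tongues, 4 were the inducible catalytic subunits and the activator subunit Psme1, and the others were Psme3, Psme4 and Psmd10. All 4 measured immunoproteasome genes were lower, with a median log2 difference of -0.32 (range -0.59 to -0.19) against -0.01 over everything tested, and adjusted p-values between 0.204 and 0.544 in limma. Psmb9 encodes the inducible form of the caspase-like subunit and lies in the MHC region beside the Tap genes. It had 2.70, 3.15 and 2.51 in DOX tongues and 3.35, 3.16 and 3.65 in no DOX tongues, which is 1.51-fold lower with DOX (log2 -0.59 ± 0.21, SE, adjusted p = 0.204 in limma). The groups did not overlap, but DOX replicate 2 all but touched no DOX replicate 2. Psmb8 encodes the inducible chymotrypsin-like subunit. Its values were 2.52, 2.34 and 1.97 in DOX tongues and 2.79, 2.41 and 2.78 in no DOX tongues, a log2 difference of -0.39 ± 0.18 with a 95% interval from -0.82 to 0.05. DOX replicate 3 was the lowest array and the groups overlapped, since no DOX replicate 2 fell below DOX replicate 1.

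Psmb10, the inducible trypsin-like subunit, had 4.27, 4.27 and 3.94 in DOX tongues and 4.56, 4.22 and 4.27 in no DOX tongues (log2 -0.19 ± 0.15, SE). The groups overlapped here, and only DOX replicate 3 lay below every no DOX array. The difference of Psmb10 was -0.082 without DOX replicate 3 and -0.085 without no DOX replicate 1, and that of Psmb8 was -0.23 without DOX replicate 3. Psme1 encodes the alpha subunit of the interferon-inducible activator ring that binds the ends of the core in place of the cap. It had 3.84, 3.85 and 3.67 in DOX tongues and 4.11, 3.96 and 4.07 in no DOX tongues (log2 -0.26 ± 0.11, 1.20-fold lower with DOX), and the groups did not overlap. DOX replicate 3 was the lowest array for 4 of these 4 genes, and without that array the median of the 4 was -0.22. With slide row as a block, which in effect sets DOX replicate 1 alone against the no DOX arrays, the median was -0.18, with Psmb8 at -0.14 and Psmb10 at -0.082.

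Psme2, the partner of Psme1 in the activator ring, had no probe by accession. The near-identical gene Psme2b had 3, and since such probes may read Psme2 transcripts as well, their source is uncertain. The brightest had 5.77, 5.61 and 5.65 in DOX tongues and 5.84, 5.80 and 6.06 in no DOX tongues (log2 -0.22 ± 0.11). The other 2 probes differed by -0.24 ± 0.11 and -0.60 ± 0.15. All 3 had lower DOX values without overlap, and none passed (adjusted p = 0.350, 0.310 and 0.133 in limma). Of the tissue-specific members, Psma8, a testis alpha subunit, and Psmb11, a thymus beta subunit, were not well above background on any array.

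The constitutive catalytic subunits, which the inducible forms replace, had higher means in DOX tongues. Psmb5, the chymotrypsin-like subunit that Psmb8 replaces, had 7.41, 7.38 and 7.42 in DOX tongues and 7.13, 7.18 and 7.29 in no DOX tongues (log2 0.20 ± 0.10, SE). Its dimmer probe gave 0.24 ± 0.10. The groups did not overlap for either probe of Psmb5, and the DOX arrays lay close together. Psmb6, the caspase-like subunit that Psmb9 replaces, had 6.83, 6.62 and 6.68 in DOX tongues and 6.45, 6.52 and 6.62 in no DOX tongues (log2 0.18 ± 0.11), with the lowest DOX and the highest no DOX array level to the last digit shown. Psmb7, the trypsin-like subunit that Psmb10 replaces, had 4.04, 4.11 and 3.92 in DOX tongues and 3.72, 3.87 and 3.78 in no DOX tongues (log2 0.23 ± 0.11). None of these 3 passed over all probes (adjusted p = 0.317, 0.419 and 0.298 in limma).

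**Figure D2:**
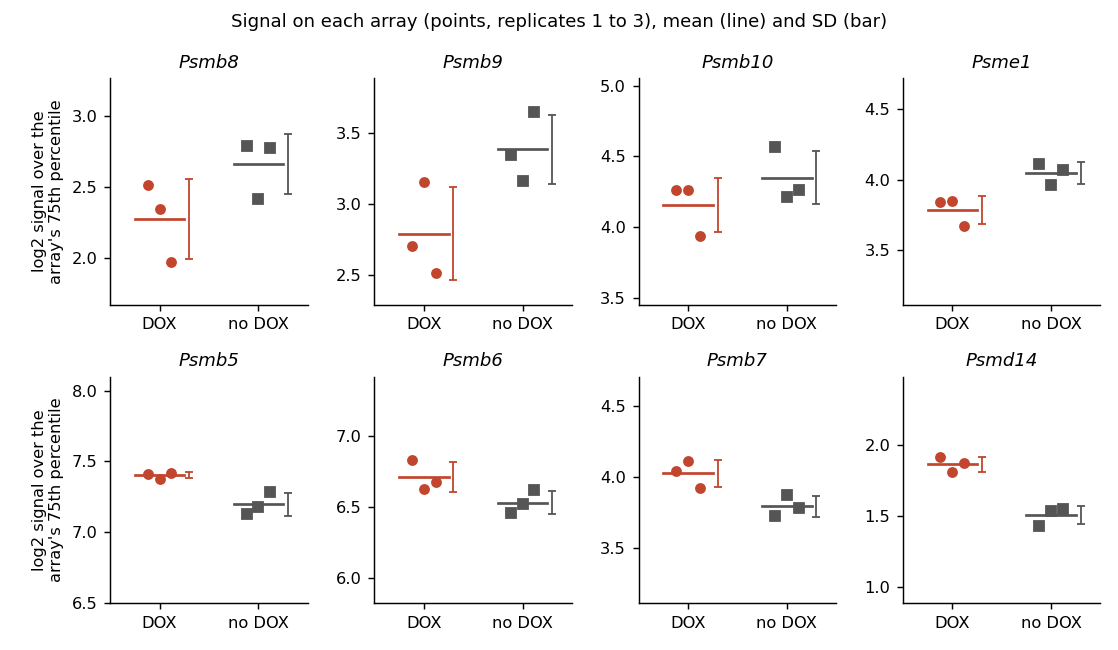
Log2 signal over the array's 75th percentile (y axis, its own range in each panel) on the 3 DOX and 3 no DOX arrays (points, replicates 1 to 3 from left to right) for the immunoproteasome genes Psmb8, Psmb9, Psmb10 and Psme1, the constitutive catalytic genes Psmb5, Psmb6 and Psmb7, and the cap deubiquitinase gene Psmd14, with the mean (line) and SD (bar). DOX points sit lower for the 4 immunoproteasome genes and higher for the other 4, and the groups overlap for Psmb8 and Psmb10.

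Each inducible subunit was then set against the constitutive subunit it replaces on the same array, which removes the scaling of the array from the comparison. The 3 pairs were chosen after the values had been seen. Values are given relative to the no DOX mean of each pair, as the probes have no common scale. Psmb8 minus Psmb5 was -0.36, -0.50 and -0.91 in DOX tongues and 0.20, -0.23 and 0.03 in no DOX tongues, a change of -0.59 ± 0.21 (SE), or a ratio 1.51-fold lower with DOX. Psmb9 minus Psmb6 was -0.98, -0.33 and -1.02 in DOX tongues and 0.04, -0.21 and 0.18 in no DOX tongues, a change of -0.78 ± 0.25, or 1.71-fold. Psmb10 minus Psmb7 was -0.33, -0.40 and -0.54 in DOX tongues and 0.28, -0.21 and -0.07 in no DOX tongues, a change of -0.42 ± 0.16, or 1.34-fold, and -0.28 without no DOX replicate 1. The DOX arrays lay below every no DOX array in all 3 pairs. No share over other pairs of genes was computed to set beside this. The members of each pair differed in opposite directions, so subtraction draws the groups apart, and Psmb8 and Psmb10 alone overlapped. An exact permutation test (two-sided, 20 assignments) gave p = 0.1 for each pair, which is the smallest p this design allows, and 0.1 after adjustment over the 3 pairs. These ratios do not tell whether the inducible gene, the constitutive gene or both differed.

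The promoters of both pairs for which a sequence was at hand are shown because the differences of the pair members had opposite signs. The windows run from 250 bases before to 50 bases after the annotated start and come from RefSeq on GRCm38.p6. The Psmb8 window is chr17:34197945-34198244 on the plus strand and the Psmb5 window is chr14:54617946-54618245 on the minus strand. The Psmb9 window is chr17:34187281-34187580 on the minus strand and the Psmb6 window is chr11:70525107-70525406 on the plus strand. Capitals mark a match to the gamma-interferon activated site (GAS, TTCNNNGAA), a motif of the interferon gamma response, in Psmb8, and matches to the antioxidant element (TGACNNNGC), the motif of Nfe2l1 and Nfe2l2, in Psmb5 and Psmb6.
Psmb8: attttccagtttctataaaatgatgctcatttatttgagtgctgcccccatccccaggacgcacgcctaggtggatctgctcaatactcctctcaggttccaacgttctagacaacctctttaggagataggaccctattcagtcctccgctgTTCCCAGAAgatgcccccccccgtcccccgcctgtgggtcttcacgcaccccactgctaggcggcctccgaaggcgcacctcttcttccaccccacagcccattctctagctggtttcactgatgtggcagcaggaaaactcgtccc
Psmb5: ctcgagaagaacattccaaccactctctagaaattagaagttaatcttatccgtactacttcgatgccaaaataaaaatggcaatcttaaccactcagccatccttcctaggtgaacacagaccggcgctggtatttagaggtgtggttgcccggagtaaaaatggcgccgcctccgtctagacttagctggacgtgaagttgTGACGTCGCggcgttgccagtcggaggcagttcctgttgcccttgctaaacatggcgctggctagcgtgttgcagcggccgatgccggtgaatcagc
Psmb9: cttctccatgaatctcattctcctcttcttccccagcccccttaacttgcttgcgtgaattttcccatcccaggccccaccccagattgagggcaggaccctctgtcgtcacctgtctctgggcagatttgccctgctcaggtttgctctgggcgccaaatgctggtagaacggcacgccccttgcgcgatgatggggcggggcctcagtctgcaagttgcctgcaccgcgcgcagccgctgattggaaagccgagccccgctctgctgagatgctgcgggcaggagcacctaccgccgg
Psmb6: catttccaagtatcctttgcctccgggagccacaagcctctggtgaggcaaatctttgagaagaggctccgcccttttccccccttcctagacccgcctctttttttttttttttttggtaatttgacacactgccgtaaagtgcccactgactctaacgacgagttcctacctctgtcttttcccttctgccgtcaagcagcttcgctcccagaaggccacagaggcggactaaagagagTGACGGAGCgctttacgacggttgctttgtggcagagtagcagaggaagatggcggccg

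Motifs were searched on both strands of 43 windows for 40 of the 48 genes, beside 32851 windows over all genes. The GAS motif was found in 1 of 6 immunoproteasome windows (Psmb8), in 1 of 27 core and cap windows and in 8.30% of all windows. The interferon-stimulated response element (GAAANNGAAA), the motif bound by interferon regulatory factors, was found in 1 of 6 immunoproteasome windows (Psme1), in 2 of 27 core and cap windows and in 3.44% of all windows. The antioxidant element was found in 0 of 6 immunoproteasome windows, in 2 of 12 core and 2 of 15 cap windows (Psmc6 and Psmd12 in the cap), and in 12.4% of all windows. The CCAAT box (CCAAT), a common promoter element bound by NF-Y, was found in 1 of 6 immunoproteasome windows (Psmb9), in 6 of 12 core and 4 of 15 cap windows, and in 37.4% of all windows. A motif match describes the letters of a window and is not a measured binding site. With so few windows per group, the shares cannot be ordered.

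Every gene of the constitutive core had a higher mean in DOX tongues, against 49.0% of everything tested. The 14 core genes had a median log2 difference of 0.19 (range 0.11 to 0.23), with adjusted p-values between 0.267 and 0.597 in limma. For 9 of them the groups did not overlap, where 12.7% of everything tested was apart and higher. The 7 alpha ring genes, which form the gate of the barrel, had a median of 0.19, with 3 of 7 apart. Psma3 had 5.95, 5.90 and 5.90 in DOX tongues and 5.67, 5.73 and 5.74 in no DOX tongues (log2 0.21 ± 0.09, SE). Psma6 had 4.23, 4.18 and 4.21 in DOX tongues and 3.97, 4.01 and 4.08 in no DOX tongues (0.19 ± 0.09). In both genes the DOX arrays lay close together above all no DOX arrays. The 7 constitutive beta ring genes had a median of 0.19, with 6 of 7 apart. Among its subunits without a catalytic site, Psmb2 had 1.74, 1.70 and 1.65 in DOX tongues and 1.46, 1.43 and 1.52 in no DOX tongues (0.23 ± 0.09). Psmb3 had 6.27, 6.27 and 6.23 in DOX tongues and 5.95, 6.06 and 6.20 in no DOX tongues (0.19 ± 0.11), with no DOX replicate 3 just under the DOX arrays. The 5 core genes whose groups overlapped were Psma2, Psma4, Psma5, Psma7 and Psmb1. No DOX replicate 3 was the array that reached into the DOX range for the 4 alpha genes among them. Psma2, for example, had 6.19, 6.11 and 6.15 in DOX tongues and 5.74, 5.95 and 6.14 in no DOX tongues (0.21 ± 0.13), so the size of its difference rested on the other 2 no DOX arrays. Psmb1 had 4.39, 4.35 and 4.44 in DOX tongues and 4.17, 4.35 and 4.31 in no DOX tongues (0.12 ± 0.10), with no DOX replicate 2 level with DOX replicate 2.

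All 17 cap genes had a higher mean in DOX tongues, against 49.0% of everything tested, with a median of 0.19 (range 0.06 to 0.36). Groups were apart for 11 of 17, where 12.7% of everything tested was apart and higher. Adjusted p-values lay between 0.140 and 0.850 in limma. The 6 ATPases, which unfold the substrate, had a median of 0.21 with 4 of 6 apart. Psmc2 had 5.67, 5.53 and 5.64 in DOX tongues and 5.32, 5.26 and 5.42 in no DOX tongues (log2 0.28 ± 0.10), and its other probe gave 0.26 ± 0.11. Psmc4 had 3.95, 3.79 and 3.86 in DOX tongues and 3.52, 3.60 and 3.72 in no DOX tongues (0.25 ± 0.11). The groups did not overlap for either ATPase gene. The 11 non-ATPase subunits, among them the ubiquitin receptor Psmd4 and the scaffold Psmd2, had a median of 0.19 with 7 of 11 apart. Psmd14, the metalloprotease that cuts ubiquitin chains from the substrate, had the smallest p of all members. It had 1.91, 1.81 and 1.87 in DOX tongues and 1.43, 1.53 and 1.55 in no DOX tongues, which is 1.28-fold higher (log2 0.36 ± 0.10, 95% interval 0.13 to 0.59, adjusted p = 0.140 in limma). Psmd6, a subunit of the lid, had 3.67, 3.62 and 3.61 in DOX tongues and 3.31, 3.45 and 3.45 in no DOX tongues (0.23 ± 0.10). Psmd8, also of the lid, had the smallest difference of the cap (0.06 ± 0.12), and its groups overlapped. The other cap genes with overlapping groups were the ATPase genes Psmc5 and Psmc6 and the non-ATPase genes Psmd2, Psmd3 and Psmd11. Psmc5 had 4.56, 4.49 and 4.57 in DOX tongues and 4.25, 4.31 and 4.59 in no DOX tongues (0.16 ± 0.12), with no DOX replicate 3 above every DOX array. Psmd12, a lid subunit, had 5.42 on each of the DOX arrays and 5.17, 5.29 and 5.33 in no DOX tongues (0.16 ± 0.10). Its groups were apart on that probe, while its dimmer probe gave 0.10 ± 0.11 with overlap.

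Core and cap together formed a narrow band. Their 31 differences had an SD over genes of 0.06. Groups were apart and higher for 20 of 31 (64.5%), against 12.7% of everything tested. The median SE of a single gene was 0.11 in limma, which draws each gene's variance toward that of all tested probes. Psma3, for example, had SDs of 0.03 in DOX and 0.04 in no DOX tongues, and an SE of 0.09. All genes share the same arrays, so the SD over genes cannot be ranked against that SE. The levels of core and cap on single arrays are given as medians, which do not show the spread over genes. After each gene was centred on its own mean, the core median was 0.13, 0.07 and 0.07 in DOX tongues and -0.16, -0.09 and -0.01 in no DOX tongues, and the cap median was 0.15, 0.05 and 0.09 in DOX tongues and -0.18, -0.07 and -0.02 in no DOX tongues. No DOX replicate 1 was the lowest array for 27 of the 31 genes and DOX replicate 1 the highest for 21. Without no DOX replicate 1, 30 of 31 still had a higher mean, and the core and cap medians were 0.14 and 0.17. Centring the arrays on the median of all probes left the core median at 0.19 but lowered the number of members apart and higher to 14, where it was 23.

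The brightness of the probes was compared because bright probes leaned higher over the whole array. When all 26256 tested genes and unnamed probes were divided by mean signal into 4 groups of equal size, 44.3% had a higher DOX mean in the dimmest group and 54.9% in the brightest, with medians of -0.05 and 0.02. The brightest group held 29 of the 31 core and cap genes and 4 of 4 immunoproteasome genes. Of the 31, 25 lay above the 75th percentile of the differences in the brightest group, 0.15. The part of spot brightness in the difference of each gene was not tested further.

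**Figure D3:**
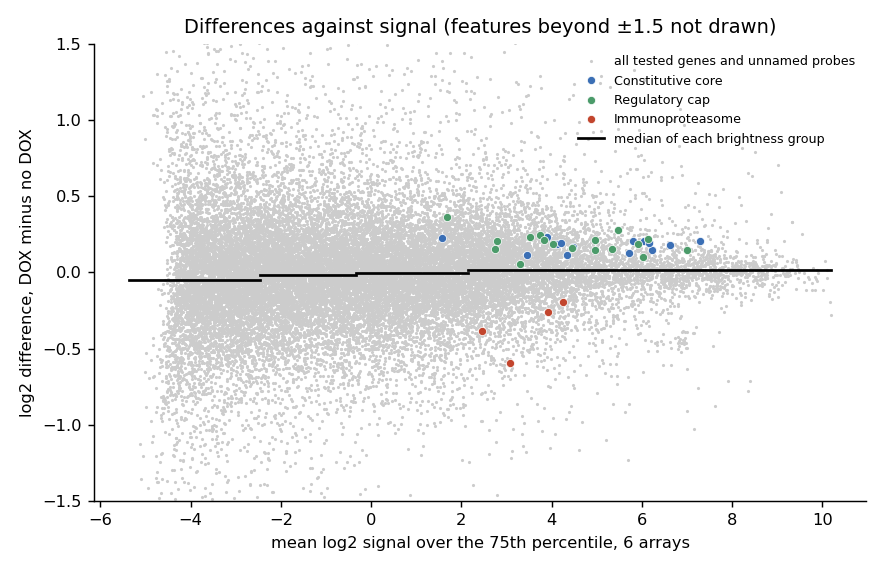
Log2 difference, DOX minus no DOX (y axis), against mean log2 signal over the 75th percentile on all 6 arrays (x axis), for all tested genes and unnamed probes (grey) and for core (blue), cap (green) and immunoproteasome genes (red), with the median of each of 4 brightness groups as a black line. Those medians run between -0.05 and 0.02, core and cap lie between 0.06 and 0.36, and the 4 immunoproteasome genes lie between -0.59 and -0.19.

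Genes for building the proteasome were mostly higher as well. Of 7 assembly chaperone genes, 6 had a higher mean in DOX tongues, against 49.0% of everything tested, with a median log2 difference of 0.20. Groups were apart for 3 of the 7, where 12.7% of everything tested was apart and higher. The 4 Psmg genes, whose products guide the assembly of the alpha ring, were all higher, with a median of 0.21. Psmg3 had 2.68, 2.35 and 2.42 in DOX tongues and 1.99, 2.10 and 2.23 in no DOX tongues, which is 1.30-fold higher (0.38 ± 0.13, SE, adjusted p = 0.204 in limma). The DOX arrays of Psmg3 all lay above the no DOX arrays, with DOX replicate 1 well above the rest. The 3 chaperones of the ATPase ring, Psmd5, Psmd9 and Psmd10, had a median of 0.08. Psmd5 had 1.56, 1.34 and 1.48 in DOX tongues and 1.07, 1.02 and 1.36 in no DOX tongues (0.31 ± 0.13), and no DOX replicate 3 fell among the DOX arrays. Psmd10, also known as gankyrin, gave -0.03 ± 0.14 on one probe and 0.05 ± 0.11 on the other. It was the only one of 10 genes with 2 tested probes whose probes differed in sign.

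The alternative activators and the inhibitor had small differences, 2 lower and 1 higher. Psme3, the nuclear activator that degrades some proteins without ubiquitin, had 2.72, 2.45 and 2.75 in DOX tongues and 2.63, 2.69 and 2.80 in no DOX tongues (log2 -0.07 ± 0.12, SE). The groups overlapped, and with 1 array left out the difference ran from -0.13 to 0.02, the upper end without DOX replicate 2. Psme4, a large activator with a role in histone turnover, had 0.74, 0.95 and 0.83 in DOX tongues and 0.91, 0.98 and 0.90 in no DOX tongues (-0.09 ± 0.10). Its other probe gave -0.29 ± 0.11 with groups apart, the largest gap between probes of any member. The brighter probe of Psme4 gave -0.04 without DOX replicate 1 and -0.15 without DOX replicate 2. Psmf1, named as an inhibitor of the proteasome, differed by 0.04 ± 0.12. The 95% intervals were -0.37 to 0.22 for Psme3, -0.34 to 0.16 for the brighter and -0.56 to -0.01 for the other probe of Psme4, and -0.23 to 0.32 for Psmf1. A difference between these genes and the core was not tested.

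Partners of the proteasome were compared as context. Of 14 measured genes for cofactors, deubiquitinases and regulators that work with the proteasome, 9 had a higher and 5 a lower mean in DOX tongues, with a median of 0.08, and 0 passed. Uchl5, a deubiquitinase of the cap, was higher by 0.38 ± 0.11 on the log2 scale. Nfe2l2, the regulator of the antioxidant response, was higher by 0.50 ± 0.15, and Ufd1, a cofactor of the unfoldase Vcp, by 0.33 ± 0.13. None of the 3 passed (adjusted p = 0.153, 0.167 and 0.240 in limma). Nfe2l1, the factor named above for core and cap, had a lower mean (-0.11 ± 0.13, adjusted p = 0.719 in limma), and its groups overlapped. Among 10 genes for ubiquitin, its activating enzyme and shuttle receptors, 9 were higher, with a median of 0.19. The shuttle receptor genes Rad23b and Ubqln1 differed by 0.36 ± 0.14 and 0.44 ± 0.18.

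Antigen processing and interferon genes had lower means in DOX tongues, as the immunoproteasome genes did. Of 12 genes of the MHC class I pathway 10 were lower, with a median of -0.30 and 0 past the threshold. The groups were apart and lower for 6 of the 12, against 12.6% of everything tested. Tap2, a subunit of the transporter that carries proteasome products into the endoplasmic reticulum, had 3.45, 3.46 and 3.42 in DOX tongues and 3.97, 3.78 and 4.06 in no DOX tongues (log2 -0.49 ± 0.11, SE, adjusted p = 0.106 in limma). H2-Q7, a class Ib molecule, differed by -0.37 ± 0.10, whereas the chaperone gene Calr was higher by 0.52 ± 0.14. Of 16 interferon regulators and targets 15 were lower, with a median of -0.42 and 0 past the threshold. Groups were apart and lower for 5 of the 16. Irf1 differed by -0.56 ± 0.16 with groups apart (adjusted p = 0.148 in limma). Zbp1, a nucleic acid sensor induced by interferon, differed by -1.07 ± 0.23, the antiviral gene Oas2 by -1.46 ± 0.32 and Irf9, part of the interferon-activated transcription complex, by -0.61 ± 0.16.

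The immunoproteasome genes and the interferon list shared their lowest array, DOX replicate 3, but other lists had it too. It was also the lowest array of the antigen processing list, of the fibroblast markers (-0.41) and of the muscle ubiquitin ligases (-0.13). The centred median of the 4 immunoproteasome genes was -0.03, -0.03 and -0.41 in DOX tongues and 0.29, 0.00 and 0.23 in no DOX tongues. The interferon list had -0.07, 0.06 and -0.63 in DOX tongues and 0.43, -0.12 and 0.48 in no DOX tongues. DOX replicate 3 was lowest and no DOX replicates 1 and 3 highest in both, and no DOX replicate 2 lay near the first 2 DOX arrays. The antigen processing list had -0.16, -0.13 and -0.19 in DOX tongues and 0.12, -0.02 and 0.26 in no DOX tongues, so its DOX arrays lay together and apart from the rest.

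**Figure D4:**
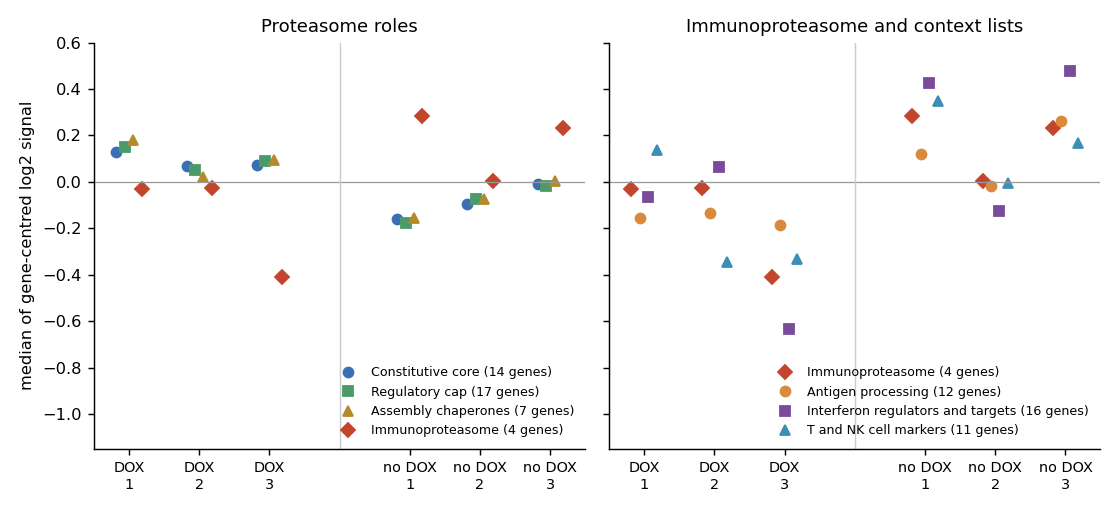
Median over a gene list of log2 signal centred on each gene's mean (y axis) on each array (x axis, DOX 1 to 3 and then no DOX 1 to 3), for proteasome roles on the left and for the immunoproteasome and 3 context lists on the right. Core, cap and chaperones lie above 0 on the DOX arrays and at or below about 0 on the no DOX arrays. The immunoproteasome, antigen processing and interferon medians are all lowest on DOX replicate 3.

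Markers of immune cells were examined beside the immunoproteasome genes. These cells carry more immunoproteasome than most others, and the levels of their markers are given here as summed linear signal in multiples of the array's 75th percentile. Of 11 measured T and NK cell markers 10 had lower means in DOX tongues, with a median log2 difference of -0.40. Their summed level ran from 12.7 to 14.7 in DOX tongues and from 13.3 to 14.6 in no DOX tongues. That sum rests most on the brightest probes, those of Cd4, which was higher, Nkg7 (-0.14 ± 0.10) and Cd3e (-0.04 ± 0.10). A second Nkg7 probe gave -1.14 ± 0.23 with groups apart (adjusted p = 0.0915 in limma). Cd8a, which marks cytotoxic T cells, was the 1 context gene that passed the test (adjusted p = 0.0241 in limma). It entered the test only through the no DOX arrays, where it is high, and 0 context genes passed with no filter on dim probes, with the filter on all 6 arrays, with the replicate block, with slide row as a block or without any 1 array other than DOX replicate 1. None of the DOX arrays measured it well above background, and it was at least 1.72-fold lower there, with measured means of -5.86 in DOX and -3.92 in no DOX tongues. Cd4 was higher by 0.31 ± 0.13 and did not pass, while its dimmer probe gave -0.06 ± 0.14 with overlap. Ncr1, which marks NK cells, was not above background. Of 6 B and plasma cell markers, 3 were measured above background, of which 2 had a higher and 1 a lower mean. Macrophage and dendritic cell markers had a median of 0.24 (7 of 10 higher), with sums of 20.4 to 27.9 in DOX tongues and 20.3 to 21.9 in no DOX tongues. Neutrophil markers (3 of 4 higher) summed to between 341.8 and 1430.5 in DOX tongues and between 290.5 and 423.2 in no DOX tongues. S100a8 and S100a9 differed by 1.86 ± 1.01 and 1.65 ± 0.75, and both were highest on DOX replicate 1 (8.87 and 9.55). Cxcr2 and Csf3r differed by only 0.05 ± 0.16 and -0.10 ± 0.10. The groups overlapped for all 4 genes.

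Among the cells that make up most of the tongue, keratinocyte markers had a median difference of 0.02 (5 of 10 higher), with sums of 2705 to 3285 in DOX tongues and 2316 to 2981 in no DOX tongues. Skeletal muscle markers had a median of 0.12 (8 of 12 higher), with sums of 3018 to 3924 in DOX tongues and 2848 to 3945 in no DOX tongues. Endothelial markers had a median of 0.02 (4 of 5 higher) and fibroblast markers one of -0.24 (5 of 6 lower). Salivary gland markers stood apart. Their median was 2.76 (5 of 6 higher), and their sums were 583.9 to 1086 in DOX tongues and 12.1 to 304.5 in no DOX tongues, without overlap. The lower gene, Klk1, differed by -4.22 ± 1.92. It had -2.45, -1.93 and -1.98 in DOX tongues and 6.53, -1.96 and 1.74 in no DOX tongues, with overlap. Muc19 had no probe by accession, and Prol1 was not above background. The part of these cell types in the differences of the proteasome genes was not tested.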

How the data were processed

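Total RNA was labelled with Cy3 and hybridised to single-colour arrays, per the labels' protocols. The scanner output the authors deposited gives linear intensity per spot, from Agilent Feature Extraction 11.5.1.1 (per the submitters' processing notes); its processed signal is background-subtracted, per the file headers. The authors' deposited value table equals that intensity times 1 factor per array (3.70 to 3.99). Outlier spots (146 to 195 per array) were dropped, log2 values of replicate spots averaged, and the 75th percentile over all probes subtracted on every array. Accessions were named through RefSeq (GRCm38.p6): 28331 probes had 1 symbol and 27350 none. A probe was tested where all 3 arrays of either group measured it well above background. The test was limma 3.58.1 in R 4.3.3 (two-sided, Benjamini-Hochberg, threshold 0.05), and the brightest probe stood for a gene. ± is the SE of a log2 difference. For single genes it came from limma, and for the 3 pairs from the variance within each group alone. The members and lists were chosen with earlier results of these data known. Array values were given for the immunoproteasome, its constitutive counterparts and the 2 members of smallest p in each other role. Up to 3 genes of smallest p were named per context list, and marker genes were named more sparingly. Psma2, Psmb1, Psmc5, Psmd8, Psmd12, Psmf1 and Psme2b were singled out after their values were seen. So were Nfe2l1, Irf1, Nkg7, Cd3e, Cxcr2, Csf3r, Klk1 and the fibroblast markers other than Col3a1. Normexp used the median signal, as the mean signal was not among the columns used. Some genes that the naming rule covers are not reported here.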

Additional observations from a re-analysis of the deposited data

How the results depend on the processing

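Under 23 alternatives, 0 proteasome genes passed in either direction in every fit that recounted them; the lowest adjusted p of a member was 0.0995 (limma with a trend in the variance). Of 420 repeated values for 20 named genes, Dek included, 418 kept direction and side of the threshold. The deposited table, both changes of filter, and the trend and robust fits left these log2 differences as they were. Direction could not change under those alternatives. Psme3 ran from -0.13 to 0.0243 with 1 array left out and reversed without DOX replicate 2. It also reversed, to 0.0083, with slide row as a block, an alternative added after seeing the data. Leaving out 1 array at a time gave medians of 0.14 to 0.22 for the core, 0.16 to 0.24 for the cap, -0.41 to -0.22 for the immunoproteasome and -0.0183 to 0.0012 over everything tested. Members apart numbered 23 to 31 higher and 2 to 3 lower in those fits, and 14 higher when arrays were centred on the median of all probes. With slide row as a block, which leaves DOX replicate 1 against 3 no DOX arrays, the cap median was 0.26, the immunoproteasome median -0.18 and Psmb8 minus Psmb5 -0.36, while Psmb6 was at 0.30, Psme4 at -0.19 and Psmg3 at 0.57. The median over everything tested was -0.0206 with quantile normalization, 0.0723 with no filter and -0.0179 with the percentile over spots. Context genes called (1 as reported) numbered 2 when centred on the median of all probes, 2 with the trend, 2 with array weights and 4 at an adjusted p under 0.1. They numbered 0 with no filter, 0 with the filter on all 6 arrays, 0 with slide row as a block, and 0 to 1 with 1 array left out. Replicate numbers did not pair the samples (correlations -0.117, -0.010 and 0.006), and with a replicate block 0 context genes, 0 members and 0 features in all were called, against 73 higher and 33 lower as reported. Over all features, 168 and 82 were called with normexp and 172 and 100 with array weights, while leaving out no DOX replicate 1 gave 1 and 2; the cause was not tested. The number of arrays limits precision: the median SE over core and cap genes was 0.11, and their median difference 0.19.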

Other observations

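Ubiquitin ligases that drive protein loss in muscle, and the factors that control them, had lower means in DOX tongues for 6 of 7 measured genes, with a median log2 difference of -0.09, and 0 passed. Fbxo32, the muscle ligase also called atrogin, had 0.01, 0.65 and 0.90 in DOX tongues and 1.65, 2.03 and 1.46 in no DOX tongues (-1.20 ± 0.26, SE, adjusted p = 0.101 in limma). All DOX arrays of Fbxo32 lay below all no DOX arrays. Fbxo30, another muscle ligase, differed by -0.11 ± 0.12 and Trim32 by 0.12 ± 0.11. Among fibroblast markers the collagen gene Col3a1 had 1.56, 2.67 and 1.85 in DOX tongues and 3.44, 3.23 and 2.99 in no DOX tongues (-1.19 ± 0.29, adjusted p = 0.122 in limma), also without overlap. It had the largest difference of that list. Col1a1 and Col1a2 differed by -0.44 ± 0.22 and -0.66 ± 0.26. Dcn, Lum and Pdgfra differed by 0.14 ± 0.17, -0.04 ± 0.21 and -0.03 ± 0.22. The groups overlapped for each of these other markers.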
